A study of Mus musculus with 32 samples.

Results

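The enzymes that build heme were followed in the hippocampus (HPC), the meninges and sorted meningeal lymphatic endothelial cells (mLECs) of wild-type (WT) mice and of 5xFAD mice with and without light treatment. The members are 8 genes of 22337 in the deposited tables, chosen by symbol: Alas1, Alas2, Alad, Uros, Urod, Cpox, Ppox and Fech. No measured value was used to select them, although earlier results of these data were known when they were listed. All 8 carried the same symbol in both tables of the series. The members lie on mm10 (GENCODE vM21) at chr9:106233455-106248654 for Alas1, chrX:150547375-150570638 for Alas2, chr4:62509169-62519918 for Alad, chr7:133686243-133710072 for Uros, chr4:116989965-116994413 for Urod, chr16:58670292-58717636 for Cpox, chr1:171275990-171281186 for Ppox and chr18:64452914-64490251 for Fech. Alas2 and Cpox lie on the plus strand and the other 6 on the minus strand. The data were bulk RNA-seq of 32 samples, each from 1 male mouse of 6 months. The HPC was sampled in 4 mice per group, and the meninges and mLECs in 4 mice of the WT group and 3 of each of the others.

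The 5xFAD mice carry human transgenes driven by Thy1 promoter elements on a C57BL/6J background, and the WT mice were littermates without the transgenes. Light treatment was near-infrared illumination of the skull through the shaved scalp under isoflurane, repeated over weeks, while untreated mice had the same anesthesia and handling under indoor lighting. The mLECs were sorted as viable CD45-, CD31+, PDPN+ cells from the meninges of 1 perfused mouse per library. Libraries of all 3 sources were made by Smart-seq2, which copies polyadenylated RNA with an oligo-dT primer and amplifies the cDNA by PCR.

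Heme synthesis begins and ends in the mitochondrion. Alas1, expressed in most tissues and repressed by heme, or Alas2, the red cell form, makes aminolevulinate from glycine and succinyl-CoA. The cytosolic enzymes Alad, Uros and Urod turn it into coproporphyrinogen, and Cpox, Ppox and Fech, at the mitochondrial membranes, oxidize the ring and insert iron. Developing red cells hold most of the body's heme synthesis, whereas neurons, glia and endothelial cells need heme for cytochromes and other enzymes.

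Expression is given as fragments per kilobase of transcript, scaled to library depth (FPKM), and differences between groups as log2 fold changes with their standard errors (SE) from edgeR's quasi-likelihood test on the deposited expected counts. A gene entered a test when it reached 1 FPKM in at least 3 samples of the fit, and was called when its Benjamini-Hochberg adjusted p over all tested genes was below 0.05 and its change at least 2-fold. In bulk samples, fewer cells of a type and less RNA per cell cannot be told apart.

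Total counts ranged from 13952825 to 23856476 in the HPC, from 6601143 to 14708202 in the meninges and from 14231415 to 24207326 in the mLECs. The mLEC libraries were far less complete, with 5998 to 9020 genes detected, compared with 16371 to 18264 in the HPC and 17427 to 19769 in the meninges. Of the 10 mLEC libraries, those of WT replicates 2 and 4 had summed FPKM of the lymphatic list of 38.0 and 55.7, compared with 1156 to 9720 in the others, with Lyve1 and Pdpn, a gate of the sort, at 0. In the meninges, the library of light-treated replicate 1 stood apart by its blood and marrow cell RNA, with a summed level of granulocyte genes of 7608 FPKM, compared with 537 to 3149 in the other 9, a summed haemoglobin level of 48468 FPKM, compared with 5030 to 18206 in the other 9, and a summed level of the other erythroid genes of 64.8 FPKM, compared with 9.59 to 22.3. Thy1, whose promoter drives the transgenes, ranged from 170 to 189 FPKM in the HPC of WT mice and from 407 to 622 FPKM in that of 5xFAD mice, and differed by 1.52 log2 units (edgeR adjusted p = 3.15e-05).

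The promoter windows below are shown for Alas2, whose level rose with haemoglobin mRNA over the meninges samples, and for the haemoglobin gene Hbb-bt as a red cell gene beside it. Also shown is that of Cpox, the 1 member called lower in WT meninges than in WT HPC. RefSeq promoter windows on GRCm38.p6 matched 7 of the 8 members. Each sequence reads 5′ to 3′ on the gene's strand and lies upstream of the RefSeq transcript start, although 20 bases of the Alas2 and of the Hbb-bt stretch fall within an exon of GENCODE vM21, and capitals mark matches on either strand to AGATAA, a motif bound by GATA factors, to CACCC, bound by erythroid Kruppel-like factors among others, or to TGCGCA, the core of the NRF-1 site.
Alas2 (chrX:150547167-150547394, plus strand): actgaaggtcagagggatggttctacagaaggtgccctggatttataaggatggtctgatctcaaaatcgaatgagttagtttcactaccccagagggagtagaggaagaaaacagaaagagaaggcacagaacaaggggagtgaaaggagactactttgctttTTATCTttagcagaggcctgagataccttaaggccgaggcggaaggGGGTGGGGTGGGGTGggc
Hbb-bt (chr7:103813977-103814173, minus strand): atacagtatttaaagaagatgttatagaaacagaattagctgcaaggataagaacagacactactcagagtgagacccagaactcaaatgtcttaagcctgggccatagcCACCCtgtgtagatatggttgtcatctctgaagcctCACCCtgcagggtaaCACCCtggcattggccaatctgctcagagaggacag
Cpox (chr16:58669958-58670207, plus strand): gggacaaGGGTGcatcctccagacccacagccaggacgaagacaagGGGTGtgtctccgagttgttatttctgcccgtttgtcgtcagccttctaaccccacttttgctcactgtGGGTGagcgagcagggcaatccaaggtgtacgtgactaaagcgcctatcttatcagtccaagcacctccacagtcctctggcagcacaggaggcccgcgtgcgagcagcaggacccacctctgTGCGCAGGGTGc

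The Alas2 window held 1 match to AGATAA and 3 to CACCC, that of Hbb-bt held 3 to CACCC, and that of Cpox held 4 to CACCC and 1 to TGCGCA. Of 32851 RefSeq promoters, 9.99% held AGATAA, 52% CACCC and 6.43% TGCGCA in their whole windows, which are longer than the Alas2 and Hbb-bt stretches printed here. Among windows not printed, those of Ppox, Uros and Urod held 0 matches to these motifs. That of the haemoglobin gene Hba-a1 and each of Alas1 held 1 to CACCC, and those of Alad held 0 and 1. The matches are a description of these letters and show no binding.

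The plot of all members by sample shows their levels in each tissue. In WT HPC, the mean FPKM was highest for Urod (45.2 ± 4.72, SD, n = 4), which removes carboxyl groups from the ring, followed by Fech (39.8 ± 1.19), Alas1 (38.1 ± 2.60), Alad (25.1 ± 1.15) and Uros (19.99 ± 1.51). The oxidases Ppox (7.13 ± 0.699) and Cpox (6.12 ± 0.771) were lower, and Alas2 was at 0.0825 ± 0.102 FPKM. Neighbours in this order whose 4 values overlapped were Fech with Alas1, and Ppox with Cpox. Urod lay above Fech in every sample (41.9 or more against 40.5 or less), but their means differed by about the spread of Urod.

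**Figure D1:**
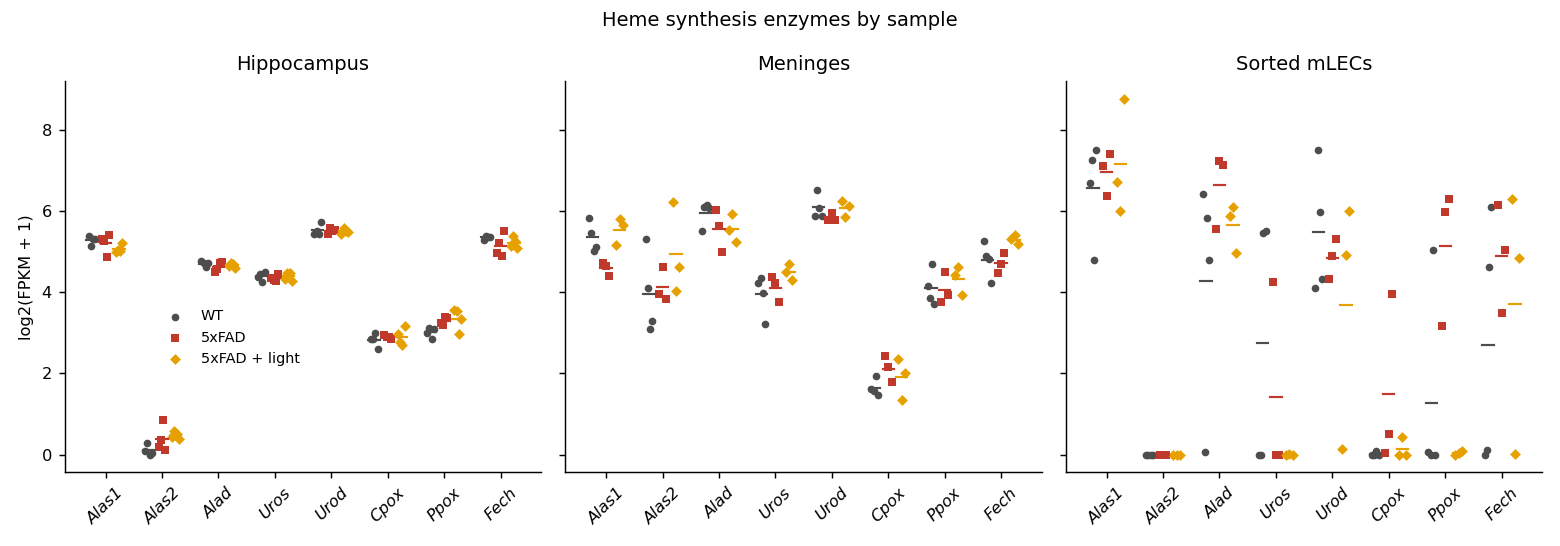
FPKM of the 8 heme synthesis enzymes in every sample, on a log2(FPKM + 1) axis, for HPC, meninges and sorted mLECs; points are single mice, shapes and colours mark WT, 5xFAD and light-treated 5xFAD mice, and short lines mark group means of the log2 values. Levels in the HPC lie close together within each enzyme, Alas2 is near 0 in the HPC, present in all meninges and at 0 in all mLECs, and several enzymes in the mLECs are either at or near 0 or well above it.

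In WT meninges, the mean FPKM was 68.1 ± 15.5 for Urod and 62.1 ± 11.7 for Alad, which forms porphobilinogen, with overlapping values (SD, n = 4). Alas1 followed at 40.7 ± 10.9, Fech at 27.7 ± 8.02, Alas2 at 17.9 ± 14.5, Ppox at 16.8 ± 5.72 and Uros, which closes the ring, at 15.1 ± 4.83. These 5 overlapped each with its neighbour. Cpox, at 2.15 ± 0.467 FPKM, was below every other member in all 4 WT samples.

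Of the 8 members, 3 were called higher and 1 lower in WT meninges than in WT HPC, when 51.4% of the 15132 genes tested over both tissues were called. Alas2 ranged from 7.59 to 38.9 FPKM in WT meninges and from 0 to 0.23 FPKM in WT HPC. Its fitted log2 fold change of 7.72 (SE 0.82, edgeR adjusted p = 5.15e-08) rests on HPC counts close to 0 and was 3.85 on the log2(FPKM + 1) scale of limma. Alas2 reached 1 FPKM in no HPC sample, so it entered this fit, and could be called, through the meninges samples alone. Alad was higher in the meninges by 1.22 log2 units (SE 0.17, edgeR adjusted p = 2.50e-06), a 2.34-fold difference, and its lowest meningeal value of 44.8 FPKM lay above its highest HPC value of 26.1 FPKM. Ppox, which oxidizes protoporphyrinogen, was higher by 1.13 (SE 0.21, edgeR adjusted p = 5.33e-05), and by 0.83, under 2-fold, without WT meninges replicate 3. Cpox, which makes the substrate of Ppox, was lower by 1.59 (log2 fold change -1.59, SE 0.24, edgeR adjusted p = 6.94e-06).

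By adjusted p alone, 7 of the 8 members differed between the tissues, compared with 73% of all tested genes. Urod was higher in the meninges by 0.52 log2 units (edgeR adjusted p = 0.00293), Uros was at -0.50 (adjusted p = 0.0196) and Fech at -0.53 (adjusted p = 0.00463), all under 2-fold. Alas1 had a log2 fold change of -0.06 (adjusted p = 0.731), with values of 34.4 to 40.4 FPKM in WT HPC and 31.3 to 55.2 FPKM in WT meninges. The median of all genes in this comparison was 0.12. Of the exon bases of Ppox, 791 of 4515 also belong to B4galt3 on the opposite strand, and of those of Cpox, 204 of 6661 belong to Gpr15 and of Alas2, 311 of 2403 to Apex2. Of those of Alas1, 465 of 6174 belong to the antisense gene 4930500F10Rik. The counting is not stated to use strand, so reads in these stretches cannot be assigned to either gene.

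Genes around the pathway were also compared between WT meninges and WT HPC, where 51.4% of all tested genes were called. Of the 15132 genes tested, 4559 were called higher in the meninges and 3223 lower. Of 12 tested genes of heme breakdown and transport, 8 were called higher in the meninges and 0 lower, with a list median of 1.67 log2 units; they included Cd163, the receptor for haptoglobin-haemoglobin (4.58), Blvrb, a biliverdin reductase (2.59), and Hmox1, the inducible heme oxygenase (2.04). All 4 haemoglobin chains were called higher. Of 21 partners of mitochondrial heme synthesis, 1 was called higher, the iron importer Slc25a28 (1.61), and 2 lower, among them the succinyl-CoA ligase subunit Sucla2 (-1.08), with a list median of -0.05. Among iron genes, 4 of 14 were called higher and 3 lower. Cox15, which makes heme A for cytochrome c oxidase, was lower by 1.59 log2 units (log2 fold change -1.59). Smaller differences under 2-fold were those of Cox10, the other enzyme of heme A synthesis (-0.93, edgeR adjusted p = 2.10e-05), the iron importer Slc25a37 (0.78, adjusted p = 0.0204) and the glycine carrier Slc25a38 (-0.53, adjusted p = 0.0253), and Hmox2, the constitutive heme oxygenase, was at -0.23 (adjusted p = 0.231). The transferrin receptor gene Tfrc was called lower (-1.25).

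In the HPC, neither the 5xFAD genotype nor light moved any member past the call. Of the 7 members tested, 0 were called in 5xFAD against WT mice by edgeR's quasi-likelihood test, when 4.28% of 12981 genes were called. DESeq2 and limma also called 0, and members with an unadjusted p below 0.05 numbered 0 by edgeR, 1 by DESeq2 and 0 by limma. The median log2 fold change of the 7 was -0.07, compared with 0.01 for all genes. For 1 of the 7, Ppox, the groups did not overlap, as for 14.5% of tested genes.

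Ppox measured 7.02, 7.73, 6.19 and 7.59 FPKM in WT mice, 8.52, 8.09, 9.50 and 9.29 FPKM in 5xFAD mice, and 10.8, 10.6, 6.85 and 9.07 FPKM in light-treated 5xFAD mice. Every 5xFAD value lay above every WT value, while 1 light-treated sample lay among the WT samples. The log2 fold change was 0.28 (SE 0.13, edgeR adjusted p = 0.217) in 5xFAD against WT mice. In light-treated 5xFAD against WT mice it was 0.38 (SE 0.13, adjusted p = 0.153).

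Fech, which inserts iron into protoporphyrin, measured 38.0, 40.5, 40.3 and 40.3 FPKM in WT mice, 30.3, 36.1, 28.4 and 44.4 FPKM in 5xFAD mice, and 34.1, 40.5, 37.1 and 33.0 FPKM in light-treated 5xFAD mice. Of the 5xFAD samples, 3 lay below all WT samples and 1 above them. The log2 fold change in 5xFAD against WT mice was -0.21 (SE 0.10, edgeR adjusted p = 0.227). Without 5xFAD replicate 4 it was -0.30 with an adjusted p of 0.0427, under 2-fold and thus not called. Alas1 measured 40.4, 34.4, 38.8 and 38.8 FPKM in WT mice, 38.6, 37.1, 28.1 and 41.6 FPKM in 5xFAD mice, and 30.7, 31.8, 31.5 and 36.1 FPKM in light-treated 5xFAD mice. Its groups overlapped, and its log2 fold change was -0.15 in 5xFAD against WT mice (edgeR adjusted p = 0.443).

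The cytosolic enzymes were the steadiest in the HPC. Over all 12 HPC samples the coefficient of variation was 5.79% for Alad (21.7 to 26.1 FPKM), 6.43% for Uros (18.1 to 21.6 FPKM) and 6.46% for Urod (41.9 to 52 FPKM). It was 11.8% for Cpox, 12.1% for Alas1, 12.8% for Fech and 17.3% for Ppox.

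In light-treated against untreated 5xFAD mice, the log2 fold changes of the 7 members in the HPC ran from 0.00 to 0.13, and 0 were called by edgeR, DESeq2 or limma, compared with 0.27% of all genes called by edgeR. None had an unadjusted p below 0.05 in edgeR, DESeq2 or limma. In this comparison 0 of the 7 did not overlap between the groups, compared with 7.63% of genes. In light-treated 5xFAD against WT mice, the log2 fold changes ran from -0.13 to 0.38 with 0 called by the same tools, compared with 2.36% of genes by edgeR. There 1 member, Ppox, had an unadjusted p below 0.05 by edgeR, and 1 by DESeq2 and by limma, and 0 of the 7 tested did not overlap, compared with 14.9% of genes. The comparisons within a tissue share their WT or 5xFAD samples.

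Alas2 stayed below 1 FPKM in all 12 HPC samples and was not tested there. It measured 0.07, 0.23, 0 and 0.03 FPKM in WT mice, 0.14, 0.28, 0.81 and 0.09 FPKM in 5xFAD mice, and 0.36, 0.51, 0.43 and 0.30 FPKM in light-treated 5xFAD mice. The light-treated samples lay above all WT samples. Of the tested genes, which leave out Alas2, 14.9% did not overlap between these groups in either direction. The expected counts behind the Alas2 levels ran from 0 to 21.94 per library.

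Among the related genes in the HPC, 2 heme proteins and 1 regulator were called higher in 5xFAD mice and none of the partners of synthesis was called. Of all 12981 tested genes, 4.28% were called in 5xFAD against WT mice and 2.36% in light-treated 5xFAD against WT mice. Of 21 tested heme proteins outside red cells, 2 were called higher in 5xFAD than in WT mice, both subunits of the phagocyte NADPH oxidase: Cyba (2.05) and Cybb (3.28). They were also called higher in light-treated 5xFAD against WT mice (1.64 and 2.61), and 5 of 6 tested leukocyte and macrophage markers were called higher beside them in both comparisons, with the summed level of the 9 listed markers at 158 to 181 FPKM in WT mice, 479 to 918 FPKM in 5xFAD mice and 402 to 680 FPKM in light-treated 5xFAD mice. Hmox1 ranged from 6.37 to 7.6 FPKM in WT mice, 8.53 to 17.3 FPKM in 5xFAD mice and 7.01 to 10.7 FPKM in light-treated 5xFAD mice. Its log2 fold change in 5xFAD against WT mice was 0.91 (SE 0.22, edgeR adjusted p = 0.0195), and that of Blvrb 0.63 (adjusted p = 0.00258), both under 2-fold, so 0 of 9 heme breakdown genes were called. Nfe2l2, a regulator of Hmox1 and of oxidative stress genes, was called higher (1.09, edgeR adjusted p = 0.00185), as 1 of 5 tested regulators of the pathway. None of 21 partners of mitochondrial heme synthesis and none of 14 iron genes were called by edgeR in this comparison, with 2 and 3 at an unadjusted p below 0.05 and medians of 0.01 and -0.03. Meningeal fibroblast markers also moved over these groups, with 2 of 7 tested called higher in 5xFAD against WT mice (list median 1.01), and all 7 below 0 in light-treated against untreated 5xFAD mice (median -1.39, 0 called, 6 at an unadjusted p below 0.05). The summed level of the 8 listed markers was 48.0 to 107 FPKM in WT mice, 82.5 to 138 FPKM in 5xFAD mice and 28 to 45.8 FPKM in light-treated 5xFAD mice. The part of leukocytes and of meningeal tissue in these values was not tested.

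**Figure D2:**
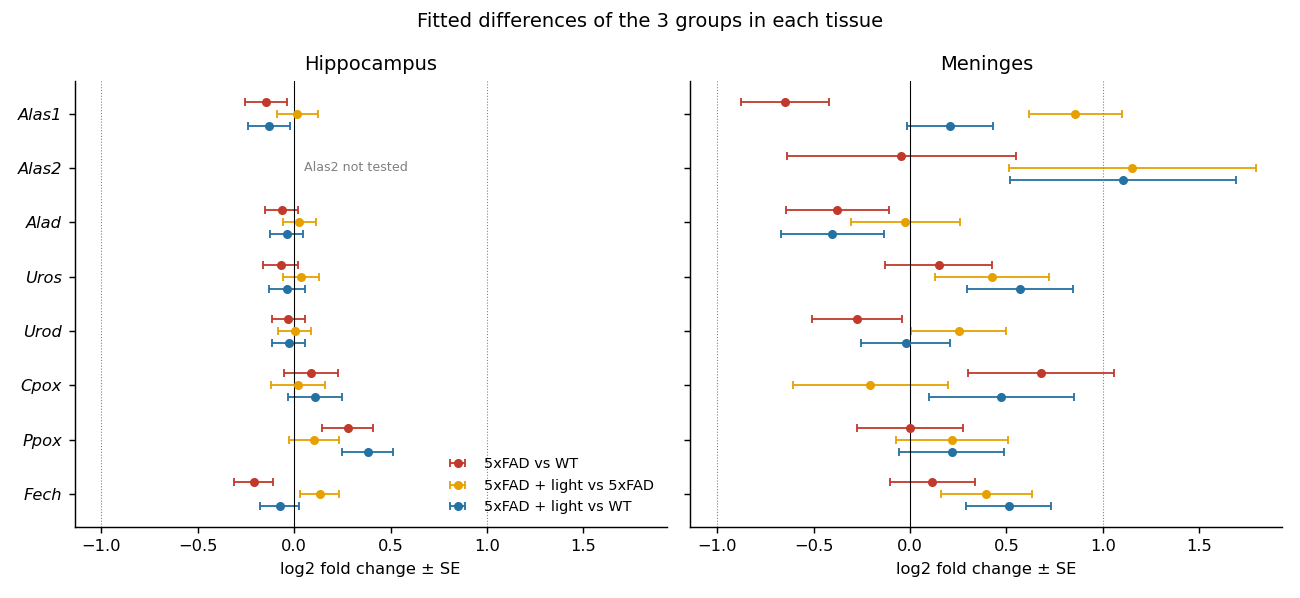
Fitted log2 fold changes (points) with standard errors (bars) of the members in HPC and meninges for the 3 group comparisons, with dotted lines at a 2-fold change in either direction. All points in the HPC lie between -0.21 and 0.38, and those in the meninges spread from -0.65 to 1.15, with Alas1 at -0.65 in 5xFAD against WT and at 0.86 in light-treated against untreated 5xFAD mice.

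In the meninges, Alas1 gave the lowest adjusted p of the members in light-treated against untreated 5xFAD mice, without passing the call. Alas1 measured 55.2, 42.8, 31.3 and 33.4 FPKM in WT mice, 25.4, 24.03 and 19.98 FPKM in 5xFAD mice, and 34.7, 55.0 and 49.4 FPKM in light-treated 5xFAD mice. All 3 untreated 5xFAD samples lay below all WT and all light-treated samples, while the latter groups overlapped. Groups did not overlap for 4.85% of 14318 tested genes in 5xFAD against WT mice and for 20.8% in light-treated against untreated 5xFAD mice. The log2 fold change of Alas1 was -0.65 in 5xFAD against WT mice (SE 0.23, unadjusted p = 0.0132, edgeR adjusted p = 0.987). In light-treated against untreated 5xFAD mice it was 0.86 (SE 0.24, unadjusted p = 0.00343, edgeR adjusted p = 0.286), a 1.81-fold difference. Its adjusted p ran from 0.0879 to 0.365 over the alternative fits that left out no sample of the compared groups. With each of their samples left out in turn, the log2 fold change ran from 0.73 to 0.96 and the edgeR adjusted p from 0.298 to 0.537. In light-treated 5xFAD against WT mice the log2 fold change was 0.21.

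The light effect on Alas1 was compared between the tissues by an interaction term over HPC and meninges together. It was larger in the meninges by 0.82 log2 units (SE 0.24, unadjusted p = 0.00229, edgeR adjusted p = 0.0804). Over the alternatives its adjusted p ran from 0.0238, by DESeq2, to 0.125. The 5xFAD effect differed by -0.52 (unadjusted p = 0.034, edgeR adjusted p = 0.333). In both interactions 0 of 8 members were called by edgeR, DESeq2 or limma and 1 had an unadjusted p below 0.05 by each, compared with 0.971% of genes called for the light effect and 1.69% for the 5xFAD effect by edgeR.

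**Figure D3:**
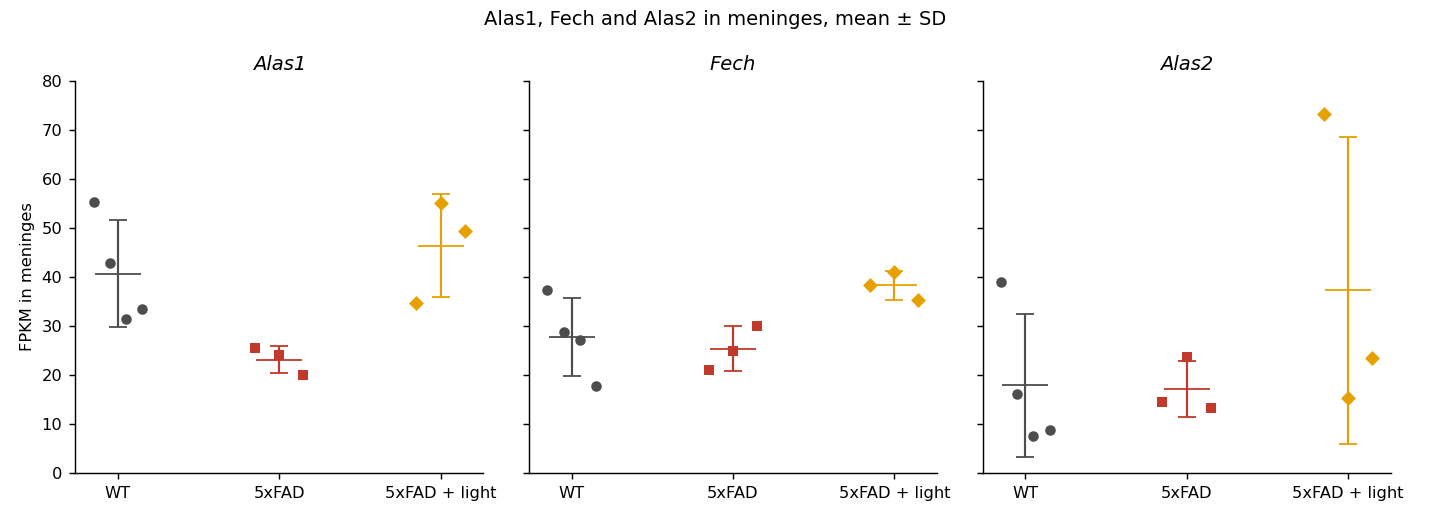
FPKM of Alas1, Fech and Alas2 in single meninges samples (points), with group means (long lines) and SD (bars), for 4 WT, 3 5xFAD and 3 light-treated 5xFAD mice. Alas1 in untreated 5xFAD mice lies between 19.98 and 25.4, below both other groups, Fech in light-treated mice lies above all untreated 5xFAD samples, and the mean of Alas2 in light-treated mice is set by 1 sample at 73.2. Groups did not overlap for 20.8% of tested genes in light-treated against untreated 5xFAD mice and for 4.85% in 5xFAD against WT mice.

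Fech, the last enzyme, measured 37.4, 28.7, 27.1 and 17.8 FPKM in meninges of WT mice, 21.1, 24.98 and 30.1 FPKM in 5xFAD mice, and 38.4, 41.1 and 35.3 FPKM in light-treated 5xFAD mice. All light-treated samples lay above all untreated 5xFAD samples, with 1 WT sample among them. Between light-treated and untreated 5xFAD mice, 20.8% of tested genes did not overlap. The log2 fold change of Fech was 0.40 in light-treated against untreated 5xFAD mice (SE 0.24, edgeR adjusted p = 0.484) and 0.51 against WT mice (SE 0.22, unadjusted p = 0.036, edgeR adjusted p = 0.275).

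Alas2 measured 38.9, 16.1, 7.59 and 8.85 FPKM in meninges of WT mice, 14.5, 23.7 and 13.3 FPKM in 5xFAD mice, and 73.2, 15.2 and 23.5 FPKM in light-treated 5xFAD mice. The 73.2 FPKM came from light-treated replicate 1, the library with the highest haemoglobin level, and the other light-treated values lay within the range of the WT samples. The log2 fold change in light-treated against untreated 5xFAD mice was 1.15 (SE 0.64, edgeR adjusted p = 0.455), and 0.14 (adjusted p = 0.945) without that library. Against WT mice it was 1.11 (edgeR adjusted p = 0.36), and 0.08 without it. In 5xFAD against WT mice it was -0.05. Without the same library Alas1 was at 0.96 (edgeR adjusted p = 0.298) and Fech at 0.36 in light-treated against untreated 5xFAD mice.

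Uros measured 17.7, 19.3, 14.8 and 8.37 FPKM in meninges of WT mice, 19.6, 17.7 and 12.5 FPKM in 5xFAD mice, and 21.4, 25.02 and 18.8 FPKM in light-treated 5xFAD mice. Its lowest light-treated value alone overlapped the WT and the untreated 5xFAD samples, and its log2 fold change was 0.42 against untreated 5xFAD mice (edgeR adjusted p = 0.548) and 0.57 against WT mice (adjusted p = 0.317). Cpox ranged from 1.75 to 2.82 FPKM in WT mice, 2.46 to 4.36 FPKM in 5xFAD mice and 1.54 to 4.08 FPKM in light-treated 5xFAD mice, with a log2 fold change of 0.68 in 5xFAD against WT mice (SE 0.38, edgeR adjusted p = 0.987). Alad ranged from 44.8 to 70.0, 30.6 to 64.0 and 36.4 to 59.8 FPKM, and Urod from 57.2 to 90.4, 53.4 to 60.5 and 56.3 to 75.2 FPKM in the same order of groups. Ppox ranged from 12.1 to 24.8, 12.5 to 21.8 and 14.2 to 23.7 FPKM. These 3 overlapped between all groups, with log2 fold changes from -0.40, for Alad in light-treated 5xFAD against WT mice, to 0.25, for Urod in light-treated against untreated 5xFAD mice.

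In each of the 3 meninges comparisons 0 of 8 members were called by edgeR, DESeq2 or limma. The share of 14318 genes called by edgeR was 0% in 5xFAD against WT mice, 0.014% in light-treated against untreated 5xFAD mice and 0.014% in light-treated 5xFAD against WT mice. Members with an unadjusted p below 0.05 by edgeR numbered 1 in each comparison: Alas1, Alas1 and Fech, respectively. DESeq2 also gave 1 in each, and limma gave 1, 2 and 0. Groups did not overlap for 1 member in 5xFAD against WT mice (Alas1), compared with 4.85% of genes, and for 2 in light-treated against untreated 5xFAD mice (Alas1 and Fech), compared with 20.8%. In light-treated 5xFAD against WT mice they overlapped for all 8 members, compared with 12.3% of genes whose groups did not. The median log2 fold changes of the members were -0.02, 0.32 and 0.35 in the 3 comparisons, beside -0.00, 0.04 and 0.01 for all genes.

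The related genes of the meninges also stayed below the call: 0 members of the lists of heme synthesis partners, heme A synthesis, heme breakdown, iron, regulators, heme proteins and haemoglobin chains were called by edgeR in any of the 3 comparisons. In light-treated against untreated 5xFAD mice, 2 of 21 partners, 1 of 12 heme breakdown genes and 4 of 14 iron genes had an unadjusted p below 0.05, and the list medians were 0.24, 0.26 and 0.26. The lowest p values among genes of heme A synthesis belonged to Cox15 in light-treated 5xFAD against WT mice (log2 fold change 1.13, unadjusted p = 0.00383, edgeR adjusted p = 0.148).

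Immature red cells carry the mRNA of Alas2 beside that of the haemoglobin chains, so the levels of both were set side by side. Over the 12 HPC samples, Alas2 and the summed FPKM of the 4 haemoglobin chains, both as log2(FPKM + 1), had Pearson r = 0.77 (permutation p = 0.00362, adjusted over 23 relations 0.0416) and Spearman rho = 0.74 (permutation p = 0.00743, adjusted 0.0854). Without the 2 samples farthest from the median haemoglobin level r was 0.74. Over the 10 meninges samples r was 0.91 (permutation p = 0.00029, adjusted 0.00667) and rho 0.83 (permutation p = 0.00487, adjusted 0.0854), and r was 0.73 without the 2 farthest samples. Without those samples, 0 members passed after adjustment of Pearson's p in either tissue. With each value centred on its group mean, Alas2 had r = 0.69 in the HPC (permutation p adjusted 0.0776) and 0.90 in the meninges (adjusted 0.00966). No other member passed after adjustment, with Alas1 in the HPC at r = -0.59 (permutation p = 0.0425, adjusted 0.326). The mLEC samples fell into separate clusters of haemoglobin level and no pooled value is given for them, although 7 of the 23 relations adjusted over were theirs.

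**Figure D4:**
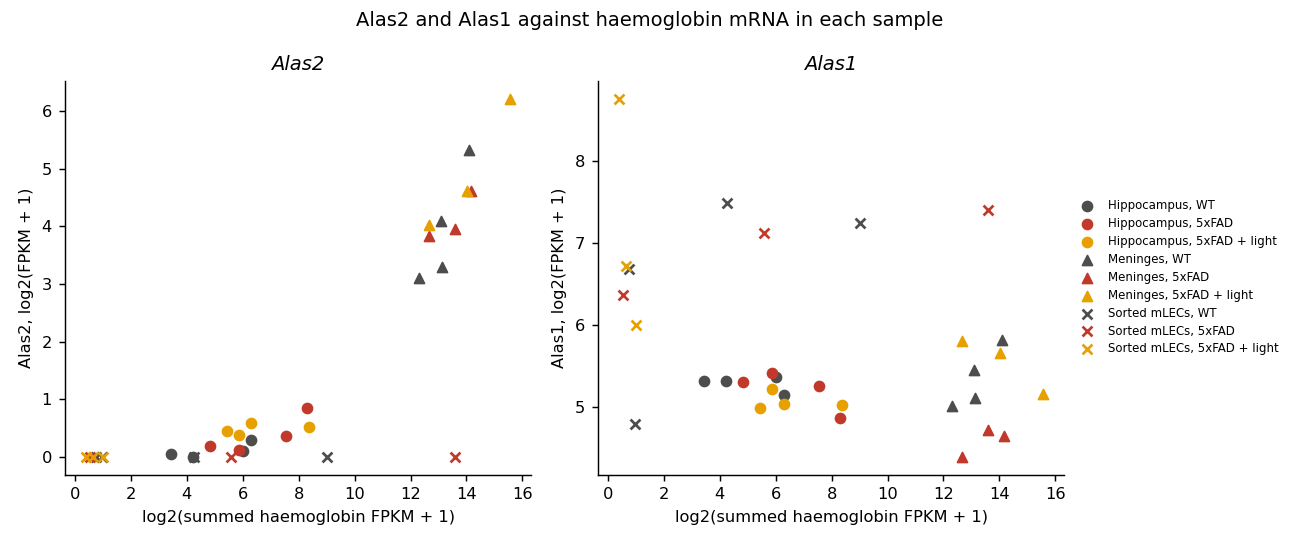
Alas2 (left) and Alas1 (right) against the summed FPKM of the 4 haemoglobin chains, each as log2(FPKM + 1), for single samples of HPC (circles), meninges (triangles) and mLECs (crosses), coloured by group. Alas2 rises with haemoglobin in the meninges and, at levels below 1 FPKM, in the HPC. It is at 0 in all mLEC samples, including the mLEC sample with 12368 FPKM of haemoglobin, whereas Alas1 shows no such rise.

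The share of Alas2 in the summed FPKM of Alas1 and Alas2 ran from 0 to 2.80% in the HPC and from 19.5% to 67.8% in the meninges, where the highest share was that of light-treated replicate 1, and was 0 in all mLECs. The genes most like Alas2 over the 10 meninges samples, among 13897 genes and by Pearson r of log2 levels, included the haemoglobin genes Hbb-bs (0.947) and Hbb-bt (0.939), the latter with its window shown above. Of the 10 most alike, 4 were on the haemoglobin or erythroid lists. In the HPC, where Alas2 stayed below 1 FPKM, 0 of the 10 were on those lists, and the most alike was Eif3h, a translation initiation factor subunit (0.922, over 12 samples). Reads of the near-identical haemoglobin genes may be split between copies. Those most like Alas1 in the meninges included Brix1, a ribosome assembly factor (0.950), and Immt, a mitochondrial cristae protein (0.949), and none of the 10 was on those lists.

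In the sorted mLECs, Alas1 was the only member above 3 counts in all 10 libraries. It measured 101.35, 151, 26.8 and 179 FPKM in WT mice, 138, 81.6 and 168 FPKM in 5xFAD mice, and 104, 62.8 and 432 FPKM in light-treated 5xFAD mice. Its groups overlapped, and its log2 fold changes were -0.06 in 5xFAD against WT mice, 0.65 in light-treated against untreated 5xFAD mice and 0.60 in light-treated 5xFAD against WT mice, none called. Alas2 was listed at 0 in all 10 libraries.

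The other enzymes were detected in some mLEC libraries and not in others. Above 3 counts per library were Alad and Urod in 9 libraries, Fech in 8, Ppox in 4, and Uros and Cpox in 3. Per library, 3, 3, 6 and 5 of the 8 members were above 3 counts in WT mice, 6, 6 and 6 in 5xFAD mice, and 3, 4 and 4 in light-treated 5xFAD mice. Of the 8188 genes tested in mLECs, the share above 3 counts in the same order was 52.4%, 55.2%, 86.8% and 80.3% in the WT libraries, 86.8%, 83.8% and 76% in the 5xFAD libraries, and 80.7%, 73.2% and 68.2% in the light-treated ones. WT replicates 1 and 2 had the lowest shares and 3 members each, while light-treated replicate 1 also had 3 members at a share of 80.7%. Whether members at 0 were absent or lost in amplification was not tested. In the HPC and meninges 7 or 8 members and at least 98.5% of tested genes of those tissues were above 3 counts.

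In mLECs, Ppox was the 1 of 6 tested members whose groups did not overlap in light-treated against untreated 5xFAD mice, compared with 10.1% of 8188 tested genes, and 0 of 6 did not overlap in 5xFAD against WT mice (6.23% of genes) and in light-treated 5xFAD against WT mice (5.67%). Ppox measured 0.04, 0, 31.8 and 0 FPKM in WT mice, 8.05, 61.3 and 76.8 FPKM in 5xFAD mice, and 0, 0.03 and 0.06 FPKM in light-treated 5xFAD mice. The expected counts were 286, 1606 and 2641 in the untreated 5xFAD libraries and 0, 1 and 1 in the light-treated ones. Ppox reached 1 FPKM only in these untreated 5xFAD libraries and in WT replicate 3. It thus entered the test through the group where it was high, and its separation and p values are no independent support for a difference. By edgeR the light-treated against untreated difference had an unadjusted p of 0.0224 and an adjusted p of 1, whereas DESeq2 gave an adjusted p of 0.00207. Uros measured 0, 0, 43.1 and 44.3 FPKM in WT mice, 18.1, 0 and 0 FPKM in 5xFAD mice, and 0, 0.02 and 0 FPKM in light-treated 5xFAD mice. DESeq2 called Uros (adjusted p = 0.0401) and Ppox (adjusted p = 0.021) lower in light-treated 5xFAD against WT mice, and edgeR called neither. Uros reached 1 FPKM only in WT replicates 3 and 4 and in 5xFAD replicate 1. Neither gene was brought into the test by a light-treated library.

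Fech measured 0, 0.08, 23.6 and 66.8 FPKM in mLECs of WT mice, 69.7, 10.2 and 32.0 FPKM in 5xFAD mice, and 77.7, 0.01 and 27.8 FPKM in light-treated 5xFAD mice. Alad measured 83.7, 0.05, 55.3 and 26.6 FPKM in WT mice, 45.9, 149 and 139 FPKM in 5xFAD mice, and 57.8, 67.1 and 30.3 FPKM in light-treated 5xFAD mice. Within the WT group they ran from near 0 up to 66.8 and 83.7 FPKM, respectively. Urod measured 16.2, 181, 62.0 and 18.9 FPKM in WT mice, 19.0, 28.5 and 38.4 FPKM in 5xFAD mice, and 0.11, 29.3 and 62.8 FPKM in light-treated 5xFAD mice. Cpox exceeded 1 FPKM in 1 library alone, that of 5xFAD replicate 4, at 14.5 FPKM, and was not tested.

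Of the 6 members tested in mLECs, 0 were called by edgeR in each of the 3 comparisons, when 0% of genes were called in 5xFAD against WT mice, 0% in light-treated against untreated 5xFAD mice and 0.0122% in light-treated 5xFAD against WT mice. Members with an unadjusted p below 0.05 by edgeR numbered 0, 1 and 1, the latter being Ppox in both. DESeq2 called 0, 1 and 2 members, beside 185, 357 and 464 genes called of all tested, and limma called 0. Leaving out WT replicates 2 and 4 and 5xFAD replicate 4 also gave 0 members called by edgeR.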

How the data were processed

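The authors' methods describe Smart-seq2 libraries whose reads were filtered with fastp and quantified with RSEM, while the submitters' processing notes list Trimmomatic, HISAT2, StringTie, DESeq2 and the build mm10, so the pipeline behind each table is not settled in the sources used here. The deposited tables hold expected counts per gene, not scaled, of which 81.6% to 89.6% per sample were whole numbers, and FPKM values that the authors normalized for transcript length and library depth. HPC and meninges came in one table and mLECs in another.

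Expected counts were rounded, scaled by TMM and tested with the quasi-likelihood test of edgeR 4.0.16 (R 4.3.3), with the 3 groups of a tissue in one fit and HPC and meninges together for tissue differences and interactions. Genes with at least 1 FPKM in at least 3 samples were kept, which left 12981, 14318, 8188 and 15132 genes in HPC, meninges, mLECs and both tissues, and genes were called at an adjusted p below 0.05 when they also changed 2-fold or more. Alternatives were DESeq2 1.42.0, limma 3.58.1 on log2(FPKM + 1) or log2(FPKM + 0.1), another scaling, no filter, erythroid genes left out of library totals, the compared groups alone, a replicate block, and each sample left out. The script was tested on simulated data. The p-values measure the spread between single mice, and counts of PCR-amplified reads are not independent molecules. Correlations used 100000 permutations, two-sided.

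Members and lists were chosen with earlier results of these data known, so no pattern here is independent support. Named were all members, Hmox1, Hmox2, Cox10, Cox15, Slc25a37, Slc25a38, Tfrc, the haemoglobin chains, genes of the lists called in a comparison, and some of the 10 genes most like Alas1 and Alas2. Replicate numbers were taken from the labels. Positions are from GENCODE vM21 and promoter letters from RefSeq on GRCm38.p6.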

Additional observations from a re-analysis of the deposited data

Results flagged for a closer look

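Values of members in groups of 4 samples were checked for 1 sample far from the other 3. Of 39 groups checked, 4 held such a sample, where chance gives about 1 in 20 for normally distributed values. That rate does not hold for groups with most values at or near 0, as in the mLEC groups below. In WT meninges, Alad measured 44.75 FPKM in replicate 1, compared with 66.42 to 69.98 FPKM in the other 3. In WT HPC, Fech measured 38 FPKM in replicate 1, compared with 40.3 to 40.52 FPKM in the others. In WT mLECs, replicate 3 had 31.76 FPKM of Ppox, compared with 0 to 0.04 FPKM in the others, and 0.06 FPKM of Cpox, compared with 0 in each of the others.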

How the results depend on the processing

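Under other settings 27 picked member fold changes were followed, and 414 of their 419 values kept their direction and their side of the call. For the mLECs these held only Ppox in light-treated against untreated 5xFAD mice. The DESeq2 calls of Uros and Ppox in light-treated 5xFAD against WT mice thus lie outside this count. The count of members called moved with DESeq2 in mLECs, from 0 to 1 in light-treated against untreated 5xFAD mice and from 0 to 2 against WT mice, and without the fold threshold in WT meninges against WT HPC, from 4 to 7. Without WT meninges replicate 3 the latter was 3, since Ppox was then under 2-fold, and 4 without each of the other WT samples. The log2 fold change of Alas1 in WT meninges against WT HPC, -0.06, was 0.0604 and 0.0611 by limma with the 2 pseudocounts and ran from -0.19 to 0.0356, the latter without WT meninges replicate 4, with each sample left out. The relation of members to haemoglobin lost its call in the HPC with group-centred values (0) and, in an alternative chosen after seeing the data, without the 2 farthest samples in HPC (0) and meninges (0). Leaving out mLEC libraries that stood apart was also chosen after seeing the data. The replicate block left the members called at 0, or at 4 between WT tissues, with Alas1 at 0.87 (edgeR adjusted p = 0.346) in meninges of light-treated against untreated 5xFAD mice, and 0 genes called in any meninges comparison. Deviations of same-numbered samples were compared between groups within each tissue, and thus between different mice. They correlated at -0.24 to 0.09 in the HPC, -0.32 to 0.26 in the meninges and -0.04 to 0.01 in the mLECs. The labels do not say whether an HPC and a meninges sample came from the same mouse. The main fit over both tissues therefore had no mouse term and treated these samples as independent.

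Counts over all genes moved more. In the order 5xFAD against WT, light-treated against untreated and light-treated against WT, they were 556 (318 to 1108 under the alternatives), 35 (0 to 192) and 306 (186 to 466) in the HPC, 0 (0 to 0), 2 (0 to 72) and 2 (0 to 373) in the meninges, and 0 (0 to 185), 0 (0 to 357) and 1 (0 to 464) in the mLECs. Between WT tissues the count was 7782 (6114 to 11053), for the 5xFAD interaction 256 (132 to 469) and for the light interaction 147 (10 to 575). With 3 or 4 mice per group, the biological coefficient of variation was 0.198 in the HPC, 0.35 in the meninges and 1.89 in the mLECs, the spread that bounds the differences called in each.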

Other observations

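In the mLECs, Hmox1, the inducible heme oxygenase, ranged from 198 to 474 FPKM in WT libraries, 272 to 326 FPKM in 5xFAD libraries and 108 to 175 FPKM in light-treated ones, and the light-treated values lay below all others. Its log2 fold change was -1.35 in light-treated 5xFAD against WT mice (edgeR unadjusted p = 0.0164, adjusted p = 0.74) and -1.06 against untreated 5xFAD mice (unadjusted p = 0.0583, adjusted p = 1), neither called. Groups did not overlap for 10.1% of 8188 tested genes in the latter comparison and for 5.67% in light-treated 5xFAD against WT mice. Slc25a28, an iron importer of mitochondria, was listed at 0 in all 3 light-treated mLEC libraries, and ranged from 0 to 15.8 FPKM in the WT and from 0.27 to 25.7 FPKM in the 5xFAD libraries. Cox10, which begins heme A synthesis, was also listed at 0 in all 3, and in 2 of 4 WT and 1 of 3 5xFAD libraries, with up to 33.9 and 18.5 FPKM in the others. The light-treated mLEC libraries had 80.7%, 73.2% and 68.2% of tested genes above 3 counts. Whether genes at 0 in them were absent or lost in amplification was not tested.

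The mLEC library of 5xFAD replicate 4 had 12368 FPKM of haemoglobin mRNA, while Alas2 and the summed level of the other erythroid genes were 0 in it. In the meninges the lowest haemoglobin sum was 5030 FPKM, in a sample with 7.59 FPKM of Alas2. Both were chosen for mention after their values were seen.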
